A study of Rattus norvegicus with 48 samples.

Results

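Ucp1 (ENSRNOG00000003580) and Ppargc1a (ENSRNOG00000004473) were read as 2 rows, chosen by their Ensembl IDs, out of 23481 gene IDs in an RNA-seq table of rat white fat. The table lists IDs without symbols and no reference table at hand pairs them, so these 2 names were taken as given and were not checked by sequence. RNA came from visceral (VAT) and subcutaneous (SAT) adipose tissue of male adolescent rats that had either been exercised or stayed sedentary, in groups of the late active phase (zeitgeber time 23, in hours after lights on) or the early active phase (zeitgeber time 13). Each depot therefore has the groups late exercise, late control, early exercise and early control, with 6 rats in each, and libraries are named below by group and rat number. All samples date from postnatal day 61, with 24 h between the last session and sampling. In exercised rats the hour of the session and the hour of sampling therefore go together and cannot be told apart. The depots come from the same 24 rats, but the labels do not say which libraries share a rat. Libraries of the same number were read as the same rat. The kind of exercise, the strain and the exact fat pads are not given in the labels.

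Both genes belong to the machinery by which fat cells burn fuel for heat. Ucp1 encodes uncoupling protein 1, a carrier of the inner mitochondrial membrane that lets protons flow back without making ATP; it defines brown adipocytes and the thermogenic (beige) adipocytes that can appear within white fat. Ppargc1a encodes the transcriptional coactivator PGC-1alpha, which drives mitochondrial biogenesis, is induced by cold and beta-adrenergic signals through cAMP and CREB in fat, and by exercise in skeletal muscle. In rodent brown fat it coactivates nuclear receptors at the Ucp1 enhancer, which lies further upstream than the windows shown here.

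The windows around the RefSeq start sites (250 bases before and 50 after, build GRCr8) are shown because the start-proximal sequence is where cAMP signals are known to reach Ppargc1a, and because it lets the pair be compared. Capitals mark the letters searched for on both strands. The search covered the full cAMP response element, TGACGTCA, and its shorter part TGACG, which overlaps every full element. It also covered the E-box, CACGTG, to which clock activators bind, and the D-box, TTATGTAA, to which clock output factors such as DBP bind. The nuclear receptor motif AGGTCA and the TATA box, TATAAA, completed the search.
Ucp1, chr19:41721372-41721671, minus strand: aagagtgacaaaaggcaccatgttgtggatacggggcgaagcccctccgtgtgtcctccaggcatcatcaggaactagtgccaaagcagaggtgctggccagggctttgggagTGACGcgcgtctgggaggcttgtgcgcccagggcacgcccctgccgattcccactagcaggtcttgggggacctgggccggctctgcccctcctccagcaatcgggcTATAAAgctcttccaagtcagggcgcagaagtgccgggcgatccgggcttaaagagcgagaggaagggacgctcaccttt
Ppargc1a, chr14:63634058-63634357, plus strand: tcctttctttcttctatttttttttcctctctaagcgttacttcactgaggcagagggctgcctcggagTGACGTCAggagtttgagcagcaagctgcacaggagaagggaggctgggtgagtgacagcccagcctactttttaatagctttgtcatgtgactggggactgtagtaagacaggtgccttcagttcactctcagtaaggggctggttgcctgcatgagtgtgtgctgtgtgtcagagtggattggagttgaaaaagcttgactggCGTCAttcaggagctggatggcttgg
The Ppargc1a window held the full TGACGTCA, beginning 181 bases before the start site, which 1.83% of 33469 RefSeq promoter windows of the same length hold. It also held TGACG on the minus strand 25 bases after the start, besides the copies inside the full element, and no TATAAA. The Ucp1 window held TATAAA 30 bases before the start (in 14.2% of all windows) and TGACG 137 bases before it (in 21.2%). The E-box, D-box and nuclear receptor letters were in neither window, and occur in 6.42%, 0.893% and 16.2% of all windows. These are matches of letters and nothing in the RNA data tests them.

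The 48 libraries held 13163675 to 17890033 estimated counts, so that 1 count in the smallest library was 0.076 CPM (counts-per-million, scaled by library size) before TMM scaling. In all, 4 libraries stood apart from their depot in rank correlation, namely SAT late exercise rats 4 and 6, VAT early exercise rat 3 and VAT early control rat 5. Values without them are given where a result rests on them. Whether the tissue was fat, or held brown adipocytes or other cells, was not checked, because adipocyte and other marker genes could not be matched to the IDs. In bulk tissue fewer cells of a type and less RNA per cell cannot be told apart.

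Ppargc1a was present at a low level in all 48 libraries, with 12 to 55 counts in each, and its level was highest in the VAT of rats exercised in the late phase. There it averaged 2.77 ± 0.966 CPM (SD, n = 6), with a lowest value of 0.992, a median of 2.98 and a highest of 3.92 CPM. VAT late control averaged 1.71 ± 0.417 CPM and ran between 0.966 and 2.05 CPM with a median of 1.92. Of the 6 VAT late exercise libraries 5 lay above every VAT late control library, and rat 1, at 0.992 CPM, lay close to the lowest of late control.

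The early VAT groups overlapped over most of their range. Early exercise averaged 1.76 ± 0.846 CPM (lowest 1.06, median 1.35, highest 2.94 CPM) and early control 1.69 ± 0.634 CPM (lowest 0.992, median 1.63, highest 2.47 CPM; SD, n = 6 each). In early exercise the mean was carried by rats 2 and 3, at 2.73 and 2.94 CPM, while the other 4 libraries lay at 1.5 CPM or below; rat 3 is the library that stood apart.

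In SAT the order differed, with late control highest. SAT late exercise averaged 1.48 ± 0.606 CPM (lowest 0.91, median 1.24, highest 2.31 CPM), against 1.68 ± 0.347 CPM in SAT late control (lowest 1.17, median 1.78, highest 2.09 CPM; SD, n = 6 each). SAT early exercise averaged 1.23 ± 0.209 CPM (lowest 0.997, median 1.25, highest 1.55 CPM), against 0.984 ± 0.317 CPM in SAT early control (lowest 0.731, median 0.813, highest 1.45 CPM; SD, n = 6 each). SAT early control was the lowest of the 8 groups, and 4 of its 6 libraries lay between 0.731 and 0.822 CPM.

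Ordered by mean, the groups ran VAT late exercise, VAT early exercise, VAT late control, VAT early control, SAT late control, SAT late exercise, SAT early exercise and SAT early control. For 6 of the 7 neighbouring pairs the gap was within the larger of the SDs of the pair. The exception was the top, where the gap of 1.00 CPM lay just over the SD of 0.966 CPM. Counting error alone gives a coefficient of variation of 15.8% to 24.7% at these counts, and the coefficient within groups was 17.0% (SAT early exercise) to 47.9% (VAT early exercise).

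**Figure D1:**
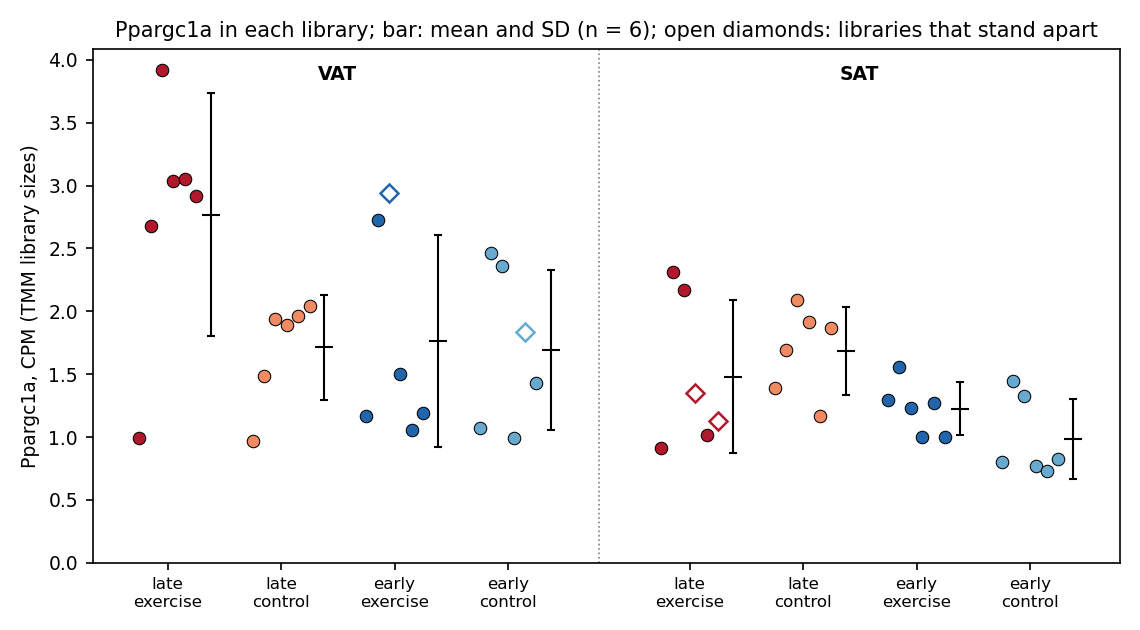
Ppargc1a in each of the 48 libraries, in CPM on a linear axis, by depot and group; the dash and bar beside each group are its mean and SD (n = 6), and open diamonds are the 4 libraries that stood apart. In VAT late exercise 5 libraries lie at 2.68 CPM or higher, above all VAT late control libraries, and the sixth lies at 0.992 CPM.

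Whether the depots differ was asked separately in exercised and in sedentary rats, and Ppargc1a was higher in VAT than in SAT of exercised rats. The 12 VAT libraries of exercised rats averaged 2.27 CPM and the 12 SAT libraries 1.35 CPM, a log2 change of 0.71 ± 0.20 (SE; 95% interval 0.30 to 1.13; adjusted p = 0.00363, edgeR). This was the only one of 16 comparisons in which Ppargc1a passed the threshold of 0.05 with edgeR, and 50.3% of the 14693 genes tested passed it there, a share that makes such a difference common between these depots. In sedentary rats VAT averaged 1.70 CPM and SAT 1.33 CPM, and the log2 change of 0.40 ± 0.20 (95% interval -0.01 to 0.81) missed the threshold (adjusted p = 0.112, edgeR; 43.3% of genes passed).

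With same-numbered libraries read as the same rat, VAT exceeded SAT in 18 of 24 rats. This was so in 6 of 6 rats with late exercise, 2 of 6 of late control, 4 of 6 with early exercise and 6 of 6 of early control. The main fits between depots took the 48 libraries as independent and did not use this pairing. With the rat as a replicate block, exercised rats had a log2 change of 0.67 ± 0.158 (SE, adjusted p = 0.00138, edgeR). Sedentary rats had 0.38 ± 0.158 (adjusted p = 0.054, edgeR). Without the libraries that stood apart the exercised call of the main fit weakened to an adjusted p of 0.0357 (log2 0.55, edgeR). With limma voom it missed the threshold at 0.0641 (log2 0.60).

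Exercise was compared with sedentary controls at each phase, and Ppargc1a passed the threshold in none of the 4 comparisons. In VAT at the late phase the log2 change was 0.69 ± 0.32 (SE; 95% interval 0.04 to 1.34), a 1.61-fold higher mean, with an unadjusted p of 0.0398 and an adjusted p of 0.421 (edgeR). No gene passed there (0% of 13883). A smaller unadjusted p was found for 9.39% of the genes tested, none of which passed. Leaving out 1 library at a time gave log2 changes between 0.56, without late control rat 1, and 0.86, without late exercise rat 1 (adjusted p between 0.299 and 0.669, edgeR). In VAT at the early phase it was 0.08 ± 0.32 (95% interval -0.58 to 0.74; adjusted p = 1, edgeR; 0% of genes passed), and -0.11 without the libraries that stood apart.

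In SAT the exercise values had opposite signs at the 2 phases. The log2 change was -0.19 ± 0.26 at the late phase (95% interval -0.73 to 0.34; adjusted p = 0.633, edgeR), where 11.5% of 14372 genes passed, and 0.32 ± 0.26 at the early phase (95% interval -0.23 to 0.86; adjusted p = 1, edgeR), where 0% did. Both atypical SAT libraries are in late exercise, and without them the late value was -0.07. The intervals leave room for a change of up to 1.82-fold in SAT early exercise and up to 2.54-fold in VAT late exercise.

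The exercise effect at the late phase was larger in VAT than in SAT by 0.88 ± 0.41 on the log2 scale (95% interval 0.06 to 1.70), which missed the threshold (adjusted p = 0.266, edgeR; 0% of 14693 genes passed). At the early phase the same difference was -0.25 ± 0.41 (adjusted p = 1, edgeR; 0% passed). Within a depot, the late exercise effect minus the early one was 0.61 ± 0.45 in VAT (adjusted p = 0.828, edgeR) and -0.51 ± 0.37 in SAT (adjusted p = 0.481, edgeR), with 0% of genes past the threshold in either.

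Late and early rats were compared, which in sedentary rats asks about time of day and in exercised rats also about the hour of training. In sedentary rats SAT had 1.71-fold more Ppargc1a late than early, a log2 change of 0.77 ± 0.26 (SE; 95% interval 0.23 to 1.31; adjusted p = 0.12, edgeR; 3.22% of 14372 genes passed). All 6 late control libraries lay above the median of early control, and 4 of 6 above its highest library. The adjusted p moved to 0.0744 without the libraries that stood apart and to 0.208 with no filter beyond 1 count (edgeR). Leaving out 1 library at a time gave 0.0936 to 0.26 (edgeR). It was 0.0436 in an edgeR fit of only these groups, where 1671 of 13763 genes passed. With limma voom it was 0.00523, where 2849 of 14372 genes passed. The call therefore depends on the fit. In VAT of sedentary rats the log2 change was 0.01 ± 0.32 (95% interval -0.66 to 0.67; adjusted p = 0.993, edgeR; 11.3% of genes passed). The phase effect in VAT minus that in SAT was -0.75 ± 0.41 on the log2 scale, with an adjusted p of 0.869 (edgeR; 0% passed).

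In exercised rats the larger late value was in VAT. VAT late exercise exceeded VAT early exercise by a log2 change of 0.62 ± 0.31 (95% interval -0.03 to 1.27; adjusted p = 0.167, edgeR), where 21% of 13883 genes passed. In SAT the same comparison gave 0.26 ± 0.26 (95% interval -0.28 to 0.80; adjusted p = 0.5, edgeR; 17.3% passed), and the VAT effect exceeded the SAT effect by 0.37 ± 0.41 (adjusted p = 0.612, edgeR; 7.43% passed). Without the libraries that stood apart the VAT value was 0.83 (adjusted p = 0.0628, edgeR).

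Differences in Ppargc1a between rats of a group were partly shared by the depots, where same-numbered libraries were read as the same rat. The deviations of VAT and SAT from their group means, on the log2(CPM + 0.5) scale, correlated across the 24 rats at Pearson r = 0.54 (permutation p = 0.0101 from 100000 shuffles of rats within groups, two-sided; 0.0203 adjusted over the 2 relations computed) and Spearman rho = 0.45 (permutation p = 0.0371, adjusted 0.0371). Without the 2 rats farthest out in SAT, late exercise rats 2 and 3, r was 0.55, and without the rats of the atypical libraries it was 0.66. Within the groups of 6 rats r was 0.54 in late exercise, 0.37 in late control, 0.46 in early exercise and 0.80 in early control. Of 14693 genes 4.01% had a higher r than Ppargc1a, and the median over all genes was 0.11.

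Single animals went both ways. Late exercise rat 1 had the lowest level of its group in both depots (0.992 CPM in VAT, 0.91 CPM in SAT), and late exercise rat 3 had 3.92 CPM in VAT and 2.17 CPM in SAT. Early control rats 2 and 3 had 2.47 and 2.36 CPM in VAT and 1.45 and 1.33 CPM in SAT, the highest of their group in each depot. Against this, late exercise rat 2 was highest of its group in SAT (2.31 CPM) and second lowest in VAT (2.68 CPM), and late control rat 5 was second highest in VAT (1.96 CPM) and lowest in SAT (1.17 CPM). Early control rat 5 was lowest in SAT (0.731 CPM) but above the group median in VAT (1.84 CPM).

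**Figure D2:**
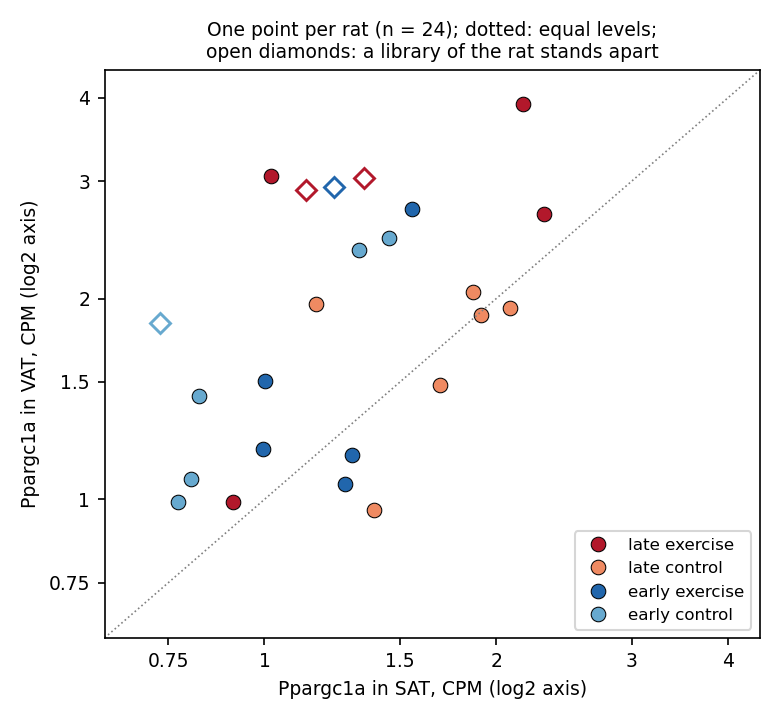
Ppargc1a in VAT (vertical) against SAT (horizontal) for each of the 24 rats, in CPM on log2 axes, coloured by group. Libraries of the same number were read as the same rat. The dotted line marks equal levels, and open diamonds are rats with a library that stood apart. Most points (18 of 24) lie above the line, and rats low in SAT within a group tend to be low in VAT.

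The genes whose ranks followed Ppargc1a most closely over the 24 libraries of each depot were ENSRNOG00000042536 (Spearman 0.586 in VAT and 0.549 in SAT) and ENSRNOG00000014986 (0.606 in VAT and 0.547 in SAT), out of 13536 genes with a mean of 1 CPM or more. Both are moderate likenesses: 0.0665% of these genes exceeded 0.5 in both depots. The IDs could not be named.

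Ucp1 was close to absent in SAT and present in only some VAT libraries. In VAT 10 of 24 libraries held a count, with 406 counts in all, while in SAT 3 of 24 did, with 1 count in each. Over the summed totals of the SAT libraries this is 0.00815 CPM (exact Poisson 95% interval 0.00168 to 0.0238, counting error only). Every SAT group was under the floor of 3 counts, so no fold is given within SAT or for effects compared between depots. At so few counts such fits could hardly reach the threshold, and their p-values do not show equal levels. The 5 fits within SAT had adjusted p-values of 0.273 to 1 and the 4 between depots of 0.946 to 1 (edgeR).

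The VAT counts were very uneven. Late exercise rats 1 to 6 had 0, 0, 53, 16, 0 and 2 counts, and late control rats 1 to 6 had 0, 0, 1, 296, 18 and 5 counts. Early exercise rats 1 to 6 had 0, 0, 5, 1, 0 and 0 counts, and early control rats 1 to 6 had 0, 9, 0, 0, 0 and 0 counts. Late control rat 4 alone held 72.9% of all Ucp1 counts in VAT, at 18.1 CPM. The next highest libraries were late exercise rat 3 at 3.92 CPM, late control rat 5 at 1.22 CPM and late exercise rat 4 at 1.01 CPM. The 14 libraries at 0 had a floor (3 counts) of 0.167 to 0.226 CPM each.

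**Figure D3:**
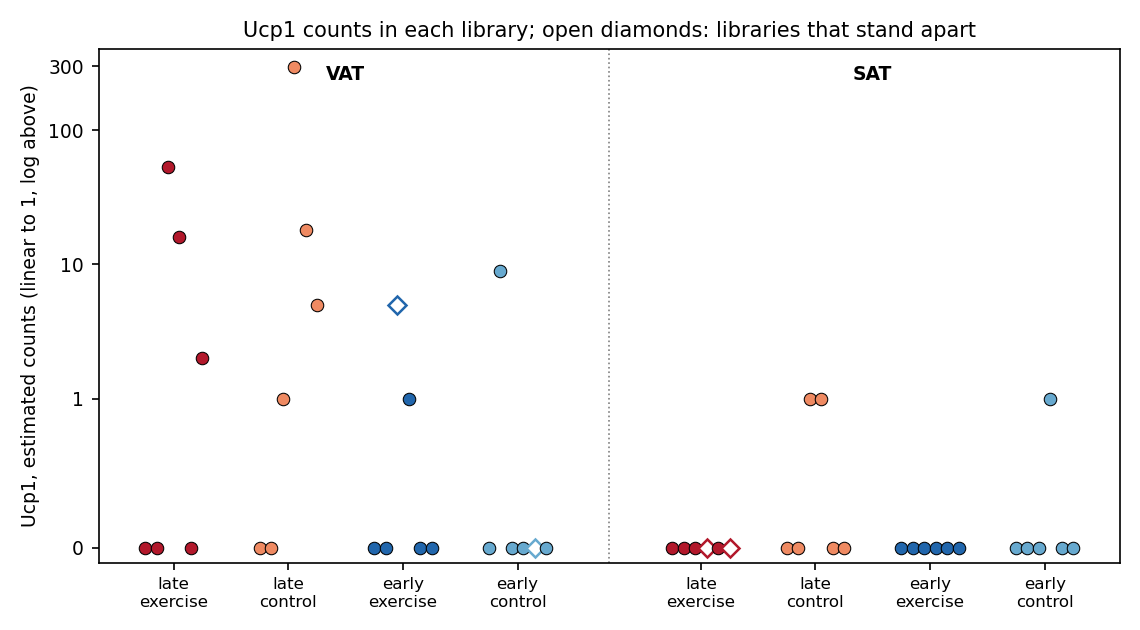
Estimated Ucp1 counts in each of the 48 libraries by depot and group, on an axis that is linear to 1 count and logarithmic above; open diamonds are the 4 libraries that stood apart. VAT late control rat 4 (296 counts) lies far above all others, and no SAT library has more than 1 count.

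Counts were more frequent late than early in VAT, but no within-depot comparison passed the threshold. A count was found in 7 of 12 late and 3 of 12 early VAT libraries. VAT late exercise averaged 0.844 ± 1.56 CPM and late control 3.28 ± 7.26 CPM, against 0.0555 ± 0.107 CPM in early exercise and 0.0925 ± 0.226 CPM in early control (SD, n = 6 each), and the groups overlap at 0. The filter on low counts removed Ucp1, so its tests come from a fit of the 19705 genes with 1 count or more in VAT. Late against early gave a log2 change of 5.0 ± 1.62 (SE) in sedentary rats (adjusted p = 0.0639, edgeR; 6.92% of genes passed). Without late control rat 4 it was 1.69 (adjusted p = 0.569, edgeR). All early control counts are in rat 2, so no fold can be given without that library. The adjusted p moved just under the threshold, to 0.049 without late control rat 2 and to 0.0467 without early exercise rat 3, which is not in the comparison. In exercised rats the log2 change was 3.57 ± 1.72 (adjusted p = 0.183, edgeR; 13.1% passed), with values of 1.79 without late exercise rat 3 and 5.26 without early exercise rat 3, the library that stood apart.

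Exercise against control in VAT rested on single libraries. At the late phase the log2 change was -1.97 ± 1.30 (adjusted p = 0.695, edgeR; 0% of genes passed), and it turned to 1.35 without late control rat 4. At the early phase it was -0.54 ± 2.08 (adjusted p = 1, edgeR; 0% passed), from 6 counts in early exercise, 5 of them in rat 3, and 9 counts in early control, all in rat 2. No direction of an exercise effect on Ucp1 can be read from these libraries.

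Between the depots Ucp1 was higher in VAT with edgeR. Sedentary rats had 329 counts in 12 VAT libraries and 3 counts in 12 SAT libraries, a ratio per library total of 105 (exact 95% interval 35.8 to 514, counting error only), and of 11.5 (3.6 to 58.5) without VAT late control rat 4. The exercised rats had 77 counts in 12 VAT libraries and 0 in 12 SAT libraries, which is at least 24.4-fold higher against a floor of 3 counts over the SAT group, and at least 8.26-fold higher without VAT late exercise rat 3. The adjusted p was 0.012 in exercised rats (log2 4.93 ± 1.55, SE) and 0.00573 in sedentary rats (4.70 ± 1.32, edgeR). With exercised SAT at 0 counts, the value of 4.93 and its SE depend on the fit and are no estimate of a fold. The sedentary value rests on 3 SAT counts. Of the 20406 genes with 1 count or more, 36.8% passed in exercised and 30.4% in sedentary rats. With limma voom the adjusted p was 0.19 in exercised and 0.0889 in sedentary rats, and with the rat as a replicate block in edgeR 0.0255 in exercised and 0.0529 in sedentary rats. Without the libraries that stood apart it was 0.233 in exercised rats (edgeR). Leaving out early exercise rat 3, after which VAT early exercise holds 1 count, gave 0.171 in exercised rats (edgeR). Without early control rat 2 the fit gave no usable value in sedentary rats (SE 47.4 on the log2 scale), since VAT early control is then at 0, while VAT late control still holds 320 counts.

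The VAT library with the most Ucp1 lay at the VAT median for Ppargc1a. In late control rat 4 Ucp1 exceeded the VAT median by 5.21 on the log2(CPM + 0.5) scale, the third highest excess of 19705 genes, while Ppargc1a lay at 1.89 CPM, -0.01 from the VAT median on that scale. That library held 79 genes over 4-fold above the VAT median, against 20 to 58 in the other VAT libraries that did not stand apart; what those genes are could not be named. In late exercise rat 3 both were high, with Ucp1 at 3.92 CPM, 10th in excess, and Ppargc1a at 3.92 CPM, the highest of all 48 libraries.

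Across the 24 VAT libraries the deviations of Ucp1 and Ppargc1a from their group means correlated at r = 0.37 (permutation p = 0.043, adjusted 0.043) and Spearman rho = 0.40 (permutation p = 0.0232, adjusted 0.0371). Without late control rat 4 and late exercise rat 3, the farthest in Ucp1, r was 0.40, and without the VAT libraries that stood apart it was 0.36 with an adjusted permutation p of 0.0582. All 24 libraries entered, 14 of them at 0 for Ucp1, so the relation also reflects which libraries held any count. Within groups r was 0.56 in late exercise, 0.39 in late control, 0.64 in early exercise and 0.56 in early control, and 0.05 in early exercise without its library that stood apart. The genes whose ranks followed Ucp1 most closely in VAT were ENSRNOG00000007018 (Spearman 0.798) and ENSRNOG00000008890 (0.792), of 13537 genes, and neither shared its size of change. In late control rat 4 they stood at 33.1 and 3.66 CPM, against medians of 28.1 and 2.16 CPM in the 20 VAT libraries with less than 1 CPM of Ucp1. Spearman values over 0.5 with Ucp1 were found for 4.23% of these genes.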

How the data were processed

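Per the labels' protocols, libraries were made from polyA-selected RNA and read on one end over 50 bases. The authors deposited estimated counts per Ensembl gene ID, all whole numbers; the submitters' processing notes list Salmon 1.4.0 and build rn6. How transcripts were summed to genes, with which annotation and strand setting, is not given in the sources used here. Every column was matched to a sample. The members and gene lists were chosen with earlier results of these data known. No reference row carried an Ensembl ID (0 matched), so the lists of thermogenic, adrenergic, respiratory, clock and cell type marker genes could not be matched and were not analysed here.

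The main test was edgeR 4.0.16 under R 4.3.3 (TMM scaling, filterByExpr, quasi-likelihood, Benjamini-Hochberg over all genes, threshold 0.05), in a fit of the 4 groups of a depot or of all 8 groups. The filter kept Ppargc1a; Ucp1 was tested without a filter beyond 1 count. Standard errors are the log2 change over the root of F. CPM uses TMM library sizes of the 48 libraries. Alternatives were DESeq2 1.42.0 size factors and Wald test, limma 3.58.1 voom, fits of only the groups compared, replicate blocks and leaving out libraries, where a library stands apart if its median Spearman correlation lies over 5 median absolute deviations below its depot's. The filtered fits within a depot were tested on simulated data, for late against early in sedentary rats only. The unfiltered fits used for Ucp1 and the fits between depots were not covered by that test. The genes named are both members and, for each, the 2 most alike in rank; for Ucp1 only VAT was used, since SAT held 3 counts. For the same reason the planned relations of Ucp1 in SAT were not computed, and its fitted changes within SAT and between depots' effects are not read.

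The labels describe both depots of 6 rats per group but do not say that a number is a rat. Genes most alike between depots in the other rats were used as a check. On these, 23 of 24 rats matched their own number in the other depot best among the 6 of their group. The group means subtracted first included the rat under check. This favours a match to its own number, so the check cannot settle the pairing. The numbers were still read as rats, and results that pair the depots depend on that reading. Over all genes the same-numbered deviations correlated at -0.111 to 0.22. P-values of fits within a depot measure the spread between rats. The main fits between depots took the 48 libraries as independent and did not use the pairing, which only the replicate block did. Intervals from counts cover counting error only.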

Additional observations from a re-analysis of the deposited data

Results flagged for a closer look

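Each group of 6 libraries was checked for a library far from the others in Ucp1 and Ppargc1a CPM, in 14 checks where values varied. For normally spread values chance alone gives about 1 in 20, a rate that does not hold for Ucp1 with its many libraries at 0. All 5 that were found were in Ucp1. VAT late exercise rat 3 stood at 3.92 CPM, with the next at 1.01 CPM, and VAT late control rat 4 at 18.1 CPM, with the next at 1.22 CPM. VAT early exercise rat 3, a library that stood apart, was at 0.268 CPM, with the next at 0.0654 CPM. VAT early control rat 2 was at 0.555 CPM and SAT early control rat 4 at 0.0594 CPM (1 count), each with the other 5 libraries at 0. In groups mostly at 0 such a finding needs only 1 library with counts. Ppargc1a had no such library in any group.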

How the results depend on the processing

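Over 25 results there were 147 values under alternatives that did not leave out a single library. Of these, 134 kept their direction and their side of the threshold. Most of the results missed the threshold in the main analysis, so this share says little about those that passed. Of the other values 7 lost a call, 2 gained one and 4 turned direction. The causes of these changes were not tested. Ppargc1a in SAT, late against early in sedentary rats, passed with limma voom (log2 0.82) and in the fit of only these groups (0.78). Ppargc1a in VAT against SAT of exercised rats missed with voom (0.60), and early exercise in VAT turned to -0.01 (voom) and -0.11 (without the libraries that stood apart). Ucp1 in VAT against SAT of exercised rats missed with DESeq2 (4.24), voom (1.54) and without the libraries that stood apart (4.07). These are no estimates of a fold, since SAT of exercised rats held 0 Ucp1 counts. In sedentary rats Ucp1 missed with voom (1.52) and the replicate block (3.85). The phase by exercise value of Ucp1 in VAT, -1.43 ± 2.76, turned to 0.22 (voom) and 0.55 (without the libraries that stood apart). The relation of Ucp1 with Ppargc1a missed without those libraries (r = 0.36).

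Leaving out each library moved the Ppargc1a log2 changes in VAT between -0.15 and 0.21 (early exercise) and between -0.11 and 0.15 (sedentary, late against early). It moved the Ucp1 changes between -2.24 and 3.10 (early exercise), -3.75 and 1.35 (late exercise) and -5.07 and 1.90 (phase by exercise). Late against early, Ucp1 ran between 1.69 and 8.64 in sedentary rats and between 1.79 and 5.26 in exercised rats. For VAT against SAT both libraries of a rat were left out together. The Ucp1 changes then ran between 4.03 and 5.07 (exercised) and between 2.77 and 5.40 (sedentary). Of these, 3.10, -5.07, 8.64 and 2.77 come without early control rat 2, when VAT early control is at 0 counts. They depend on the fit and are no estimates of a fold. The same holds for 4.03 to 5.07, since SAT of exercised rats held 0 Ucp1 counts. DESeq2 gave no adjusted p for either gene in VAT late exercise. Within a depot a replicate number names different rats: of 36 same-numbered pairs over 0.1 were 16 in SAT and 14 in VAT, and 5 and 7 of 24 libraries matched their own number best. With that replicate block no Ppargc1a or Ucp1 call within a depot changed (SAT late against early, sedentary: log2 0.82, adjusted p = 0.0568, edgeR). The count of genes called over all alternatives without single left-out libraries ran from 372 to 2849 for that comparison (463 with edgeR), from 383 to 3223 in exercised SAT (2492), from 0 to 2718 for SAT late exercise (1654), from 0 to 200 for VAT late exercise (0), from 1364 to 2398 for sedentary VAT, late against early (1575), and from 56 to 1480 for phase by depot in exercised rats (1092). Ppargc1a rests on 12 to 55 counts in each library, and Ucp1 in a library at 0 is known only to lie under its floor.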

Other observations

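In VAT, 2 of the 6 replicate numbers kept a like place in Ppargc1a across the groups, and 4 did not. The labels link the numbers to no shared litter, batch or day, and this was noticed after the values were seen and was not tested. Number 1 had the lowest or second lowest VAT level in each of the 4 groups, at 0.966 to 1.17 CPM, and number 3 was among the upper 3 in each, at 1.94 to 3.92 CPM. Number 2 was highest or second highest in the early groups and second lowest in the late groups, at 1.48 to 2.73 CPM. Numbers 4 (0.992 to 3.04 CPM), 5 (1.06 to 3.05 CPM) and 6 (1.19 to 2.91 CPM) held no fixed place.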
